A study of Pseudotaxus chienii and Amentotaxus argotaenia and Torreya grandis with 9 samples.

Results

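Pseudotaxus chienii and Amentotaxus argotaenia are conifers of Taxaceae, the yews and their relatives, and their twigs were compared by RNA-seq over the transcripts that both species expressed at a measurable level. P. chienii is labelled as taxol-producing and A. argotaenia as non-taxol producing. Each species had 3 libraries of total RNA from fresh twigs, wood and needles together, of plants aged 3 years, and no treatment is given. Another species, Torreya grandis, labelled as non-taxol producing and with 3 libraries of the same tissue and age, entered the choice of components tested, the estimate of the spread and a comparison near the end. Whether the 3 libraries of each species stem from different trees is not labelled, and p-values here reflect only library-to-library spread, which may be technical. Species and phenotype cannot be told apart, since each phenotype is carried here by 1 species of the pair.

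Taxol is a diterpenoid of yews that binds microtubules and is used against cancers. Trees of this family also hold flavonoids, and twigs join wood, which conducts water, to needles, which carry out photosynthesis, so a twig library mixes the transcripts of several tissues. In such bulk samples, fewer cells of a type and less RNA per cell cannot be told apart.

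The unit described is the component of a Trinity assembly. Trinity builds transcripts from reads without a genome and writes IDs in which features that share a component, a group of related assembled sequences, differ only in a final gene number. Features of 1 component can be alleles, close paralogs, or the counterparts of 1 gene in different species. The deposited level of each feature is in TPM (transcripts per 1000000), a length-normalised unit, and was summed over each component. Of 42956 components, 10270 had at least 5 TPM in all 6 libraries of the pair and are described here; they hold 32147 of the 88609 features. The lowest library value of a component was 5 TPM just inside this limit and 4.99 TPM just outside it, and 1153 components with a lowest value from 4 to under 5 TPM fell outside. The files do not pair the IDs with gene names, so no gene, pathway or tissue marker could be looked up, and the labelled tissue was not checked against markers.

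The components held most of the transcript pool of both species. They took 76.3%, 77.4% and 79.0% of the TPM in P. chienii replicates 1, 2 and 3, and 78.0%, 77.6% and 75.5% in A. argotaenia. The species overlapped, with means of 77.6% ± 1.35 (SD, n = 3) and 77.0% ± 1.32, and an exact permutation test over the libraries gave p = 0.7 (two-sided). With 3 libraries against 3 the smallest p this test can give is 0.1. It was run on 7 measures per library, none of which fell under an adjusted p of 0.28. The number of all components at 5 TPM or more was also close, from 18187 to 19760 in P. chienii and from 18287 to 19688 in A. argotaenia.

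Libraries of a species differed far less than libraries of different species. P. chienii replicates 2 and 3 were at least 2-fold apart in 1.53% of the components, and its replicate 1 was that far from them in 4.94% and 5.48%. A. argotaenia replicates 1 and 3 were at least 2-fold apart in 2.15%, and its replicate 2 was that far from them in 8.76% and 7.39%. Across species, every one of the 9 pairs of libraries had 38.0% to 39.1% of the components at least 2-fold apart. P. chienii replicate 1 and A. argotaenia replicate 2 thus stood apart from the others of their species. A. argotaenia replicate 2 was at least 2-fold above both others in 260 components and below both in 242, against 97 in all for its replicate 1 and 41 for its replicate 3. P. chienii replicate 1 was at least 2-fold away from both others in 307 components, against 34 for replicate 2 and 51 for replicate 3. Over the components the median SD of log2(TPM + 1) among libraries was 0.188 in P. chienii and 0.234 in A. argotaenia.

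**Figure D1:**
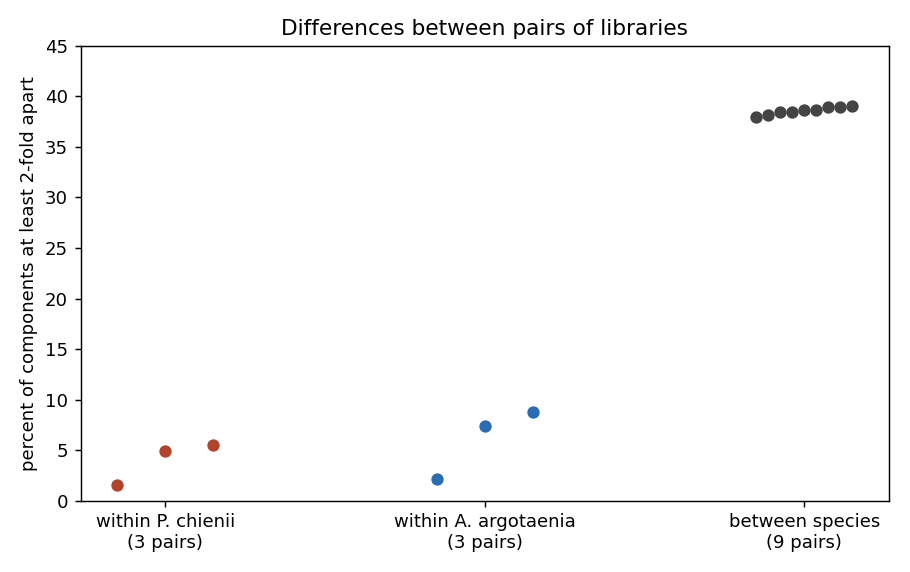
Percent of the 10270 components that were at least 2-fold apart on the log2(TPM + 1) scale (vertical axis) in each pair of libraries (1 point per pair), for pairs within P. chienii, within A. argotaenia and between the species. The 3 pairs within each species lie at 8.76% or less, and all 9 pairs between the species lie at 38.0% or more.

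Levels differed between the species in both directions by similar amounts. Fold changes here are differences of log2(TPM + 1), P. chienii minus A. argotaenia, from limma fitted over all 39423 components with at least 1 TPM in at least 3 of the 9 libraries. A component was called at a Benjamini-Hochberg adjusted p under 0.05 over that whole table and at least 2-fold. Among the 10270 components 3637 were called (35.4%), against 53.7% of the whole table. The whole table includes components found in 1 species alone, which the limit of 5 TPM leaves out, so nothing is read from that gap. The called components were higher in P. chienii in 1999 cases (19.5%) and lower in 1638 (15.9%), beside 25.7% and 28.1% of the whole table. All 3 libraries of a species lay above all 3 of the other in 6776 components (66.0%), beside 65.4% of the whole table. Without P. chienii replicate 1 and A. argotaenia replicate 2 together, 1959 were higher and 1727 lower.

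Most differences among the 10270 components were modest, which the limit of 5 TPM favours. Over all 39423 components fitted, which include those found in 1 species alone, the median size of the log2 fold change was 1.30. Among the 10270, the log2 fold change ran from -0.65 at the lower quartile to 0.79 at the upper quartile. Its median was 0.09 and its median size 0.73. Differences were under 1.5-fold in 4267 components and from 1.5-fold to under 2-fold in 2268. A further 2720 were from 2-fold to under 4-fold, 723 from 4-fold to under 8-fold, and 292 at least 8-fold. Of the last group, 158 were higher and 134 lower in P. chienii. Of the 3735 components at least 2-fold apart, 98 were not called. Another 2415 components had an adjusted p under 0.05 by limma with a difference under 2-fold.

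No offset between the species was resolved in the median level of these components. TPM sums to nearly the same total in every library, so a shift of all levels together cannot show in it and was not tested. Taking in each library the median deviation of the components from their mean over the 6 libraries, P. chienii replicates 1, 2 and 3 stood at 0.08, 0.05 and 0.00 on the log2 scale, and A. argotaenia replicates at -0.10, -0.08 and 0.03. The species overlapped, because A. argotaenia replicate 3 lay above P. chienii replicate 3. The difference of 0.09 between the species means had p = 0.2 by the exact permutation test (two-sided, n = 3 and 3). The balance of calls rests on this small offset. Scaling each library by the median ratio over the components set the offset to 0.00 and gave 1775 higher and 1851 lower, so that the excess of higher components turned into a small excess of lower ones. Quantile normalization gave 1884 and 1857.

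The called components carried a large part of each transcript pool. Those higher in P. chienii made up 31.4%, 31.7% and 32.8% of the TPM in P. chienii replicates 1, 2 and 3, and 6.86%, 7.18% and 7.09% in A. argotaenia. Those lower in P. chienii made up 6.52%, 6.65% and 6.40% in P. chienii, and 31.1%, 33.3% and 29.8% in A. argotaenia. The components not called held 39.1% ± 0.700 (SD, n = 3) in P. chienii and 38.6% ± 1.52 in A. argotaenia. Which species is higher in the called groups follows from the direction of the calls, so these values only describe how much TPM they cover.

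**Figure D2:**
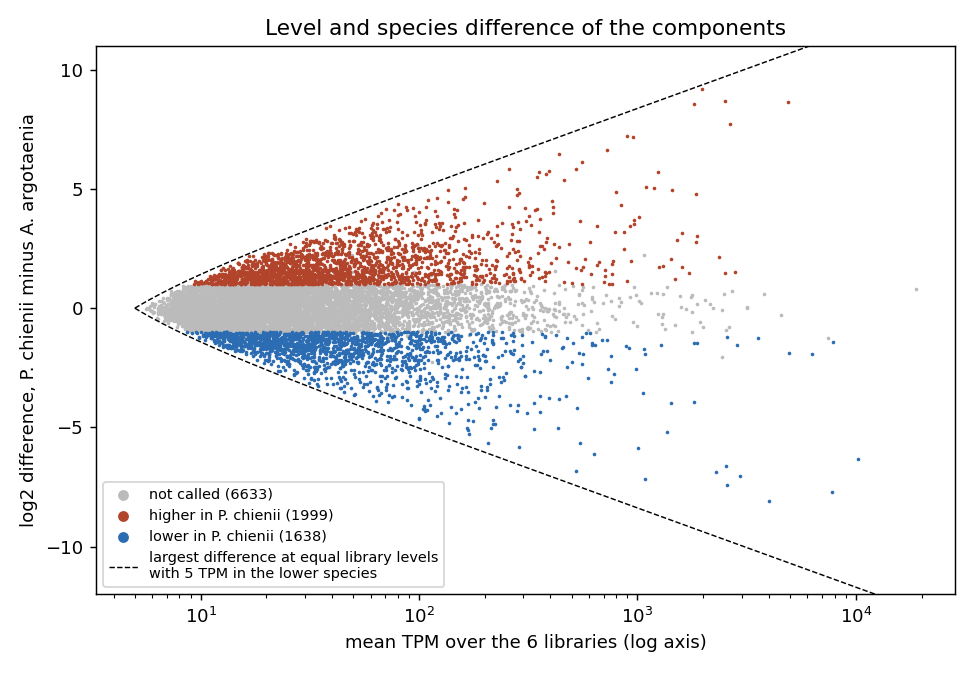
Each point is 1 of the 10270 components, with its mean TPM over the 6 libraries (horizontal log axis) and its log2 difference between P. chienii and A. argotaenia on the log2(TPM + 1) scale (vertical axis); 1999 called higher and 1638 called lower components are coloured, and the dashed lines mark the difference reached when the lower species stands at 5 TPM. The points fill the space between the lines on both sides and reach 9.19 above and -8.09 below.

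Abundant components were called more often than scarce ones, which the limit of 5 TPM favours. By the mean over the 6 libraries, 765 components lay from 5 to 10 TPM, 4767 from 10 to 30, 3400 from 30 to 100, 1015 from 100 to 300, 237 from 300 to 1000 and 86 at 1000 TPM or more. The share called was 1.70%, 29.3%, 44.9%, 51.4%, 55.7% and 55.8% along these classes. The first share rests on 13 calls and was 3.27% without A. argotaenia replicate 1 and 2.88% without its replicate 2. The order of the last pair of classes turned under several alternatives, for example to 54.9% and 46.5% in a fit of the 6 libraries alone. The lower classes are bounded by the limit of 5 TPM itself: at a mean of 10 TPM the largest possible ratio of species means is 3-fold, at 30 TPM 11-fold and at 100 TPM 39-fold. With the limit lowered to 1 TPM in all 6 libraries, an alternative applied to these classes after seeing the data, the shares were 32.3%, 41.9%, 48.0%, 53.3%, 59.3% and 58.2% in the same classes. The gradient was flatter but kept its direction up to 1000 TPM. The limit of 1 TPM bounds the classes too, at 19-fold for a mean of 10 TPM, so it cannot separate abundance from the limit. The shares moved with the limit: at 10 TPM the class from 10 to 30 TPM had 14.2% called. At a limit of 20 TPM the class from 30 to 100 TPM had 26.4%. These shares are a description of 6 classes and were not tested against each other.

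Large differences sat in the upper classes, and the limit of 5 TPM leaves little or no room for them lower down. The classes from 5 to 30 TPM held 0 differences of at least 8-fold. Up to a mean of 10 TPM such a difference was impossible, since the largest ratio of species means there is 3-fold. At 30 TPM the largest ratio is 11-fold in TPM, and it is smaller on the log2(TPM + 1) scale used for the 8-fold cut. At least 8-fold differences made up 3.15% of the components from 30 to 100 TPM, 11.2% from 100 to 300 TPM, 19.0% from 300 to 1000 TPM and 30.2% at 1000 TPM or more. In the top class 13 were higher and 13 lower in P. chienii, and 24 called components were higher and 24 lower. From 300 to 1000 TPM the balance leaned to P. chienii, with 81 called higher and 51 lower, and with 31 against 14 among the 8-fold differences. The median size of the log2 fold change was 0.34 in the lowest class and 1.47 in the highest. The spread among libraries changed much less, from a median SD of 0.185 to 0.273 in P. chienii and from 0.209 to 0.362 in A. argotaenia. The limit of 5 TPM holds down the fold changes in the lower classes, so nothing is read from this contrast. These sizes were not examined at the limit of 1 TPM.

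**Figure D3:**
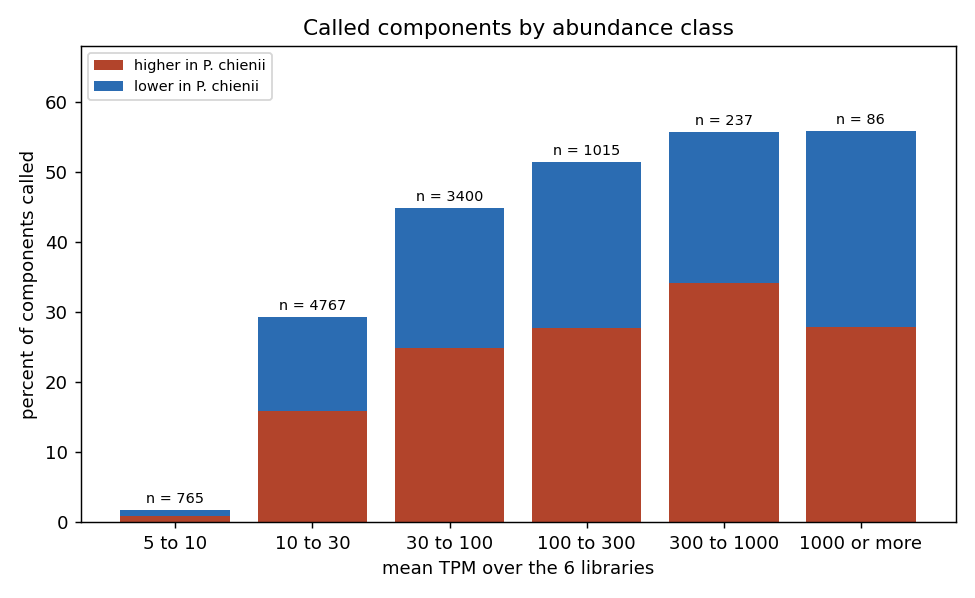
Percent of components called higher (lower part of each bar) or lower (upper part) in P. chienii than in A. argotaenia (vertical axis), by the mean TPM over the 6 libraries (horizontal axis), with the number of components in each class above its bar. The called share goes from 1.70% in the lowest class to 55.8% in the highest, and both directions contribute in every class.

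Within the 10270 components, the 10 most abundant held a larger share in the A. argotaenia libraries than in those of P. chienii. This pool leaves out components under 5 TPM in any library of the pair. The 10 most abundant components of a library held 8.76%, 8.94% and 9.94% of the TPM of all 10270 in P. chienii replicates 1, 2 and 3, and 16.9%, 16.0% and 11.8% in A. argotaenia. All P. chienii values lay below all A. argotaenia values, and p was 0.1 by the exact permutation test (two-sided, n = 3 and 3), the smallest this design allows. The adjusted p of this test was 0.28 over the 7 measures, so a difference between the species was not resolved. The 100 most abundant held 30.3% ± 1.21 (SD, n = 3) in P. chienii and 35.1% ± 3.65 in A. argotaenia, with overlapping libraries and an exact permutation p of 0.2. Components at a mean of 1000 TPM or more held from 18.2% to 20.7% of all TPM in P. chienii and from 20.4% to 27.1% in A. argotaenia, while those from 300 to 1000 TPM held from 12.3% to 13.8% and from 10.4% to 11.05%.

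The species shared part of their most abundant components among the 10270. All lists and ranks here are taken within these components. Those abundant in 1 species and under 5 TPM in a library of the other could not enter, which favours overlap. Of the 10 with the highest species mean, 3 were common to both lists (30% of each), of the top 100 it was 50 (50%), and of the top 1000 it was 526 (52.6%). In the P. chienii top 100, 52 were called higher in P. chienii, 8 lower, and 40 were not called. In the A. argotaenia top 100, 50 were called lower in P. chienii, 5 higher, and 45 were not called. Each list was chosen on the level of 1 species, which favours components higher there. Among the 50 components in both top 100 lists, 13 were called, beside 35.4% of all 10270. A high rank in both species leaves less room for a difference, so nothing is read from this count.

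The leading places among the 10270 show both kinds of component. At rank 1 in P. chienii and rank 3 in A. argotaenia stood TRINITY_DN36656_c0, described with the components that were not called. Rank 2 of P. chienii was at 10147, 7361 and 11809 TPM in its replicates 1, 2 and 3, and took rank 4494 in A. argotaenia, at 32.9, 7.60 and 45.3 TPM. Rank 3 of P. chienii was at 4459, 5442 and 6024 TPM there and at 27.1, 19.5 and 25.6 TPM in A. argotaenia. These components, listed here by rank and without an ID, were called higher, with log2 fold changes of 8.65 ± 0.82 (SE; limma, adjusted p = 2.07e-05) and 7.73 ± 0.18 (SE; limma, adjusted p = 2.31e-07). Rank 2 was led by different features in the 2 species, and rank 3 by the same feature. The leading component of A. argotaenia was at 23975, 9431 and 27460 TPM in its replicates 1, 2 and 3, and took rank 467 in P. chienii, at 163, 340.04 and 209 TPM. Rank 4 of A. argotaenia was at 15127, 10210 and 9090.3 TPM, with rank 7 in P. chienii, at 4895, 4410 and 3412 TPM. Both were called lower, with log2 fold changes of -6.34 ± 0.58 (SE; limma, adjusted p = 1.74e-05) and -1.42 ± 0.26 (SE; limma, adjusted p = 0.00123). So the heads of the lists hold components that are abundant in both species and components high in one species and far lower in the other.

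The components named for the largest rises lay near the limit of 5 TPM in A. argotaenia, while those named for the largest falls had P. chienii means of 37.9 and 38.9 TPM. TRINITY_DN42701_c0, with 2 features, was at 5325, 3409 and 3161 TPM in P. chienii replicates 1, 2 and 3 and at 6.47, 5 and 5.43 TPM in A. argotaenia. Its log2 fold change was 9.19 ± 0.21 (SE; limma, adjusted p = 2.28e-07), the highest of the 10270. TRINITY_DN44269_c1, with 3 features, was at 4405, 4982 and 5682 TPM in P. chienii and at 15.1, 5.99 and 14.7 TPM in A. argotaenia. Its log2 fold change was 8.69 ± 0.60 (SE; limma, adjusted p = 3.38e-06), and it took rank 4 in P. chienii and rank 8128 in A. argotaenia. The libraries of the species do not overlap in these or in the next pair, which was a condition for naming them and adds no support.

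In the other direction, TRINITY_DN45603_c0, with 5 features, was at 7.41, 67.96 and 38.3 TPM in P. chienii replicates 1, 2 and 3 and at 10549, 5615 and 7788 TPM in A. argotaenia. Its log2 fold change was -8.09 ± 0.67 (SE; limma, adjusted p = 9.65e-06), the lowest of all. TRINITY_DN41386_c1, with 2 features, was at 32.8, 48.3 and 35.5 TPM in P. chienii. In A. argotaenia it was at 2877 and 5073 TPM in replicates 1 and 3 and at 38470 TPM in replicate 2, the library that stood apart. Its log2 fold change was -7.71 ± 0.81 (SE; limma, adjusted p = 3.98e-05). In each of these 4 components a single feature led in both species, and it held 98.6% or more of the level in the higher species.

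The low side of such differences can be set beside the levels at which other abundant components of one species were listed in the other. Over 208 of all components chosen for an A. argotaenia mean of 100 TPM or more and a P. chienii mean under 2% of it, the median level was 0.163%, 1.11% and 0.679% of the A. argotaenia mean in P. chienii replicates 1, 2 and 3. TRINITY_DN45603_c0 stood at 0.0928%, 0.851% and 0.480% of its A. argotaenia mean in the same libraries. TRINITY_DN41386_c1 stood at 0.212%, 0.312% and 0.229%, a narrower range. Both are among the 208. Over 203 components chosen in the same way for P. chienii, the median in A. argotaenia replicates 1, 2 and 3 was 0.198%, 0.129% and 0.200%. TRINITY_DN42701_c0 stood at 0.163%, 0.126% and 0.137% there and TRINITY_DN44269_c1 at 0.3004%, 0.119% and 0.293%. Both are among the 203. Whether these low values come from the tree's own transcripts or from reads of another library or a related sequence was not tested. The same holds for the low side of ranks 2 and 3 of P. chienii and of rank 1 of A. argotaenia, also under 2% of the higher species. In all, 31 of the 10270 components had a lower species under 2% of the higher, 16 of them higher in P. chienii. With feature values under 2% of the highest species mean set to 0, 69 components, the 4 named here among them, dropped below the limit, 10201 were left and 3587 of these were called.

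**Figure D4:**
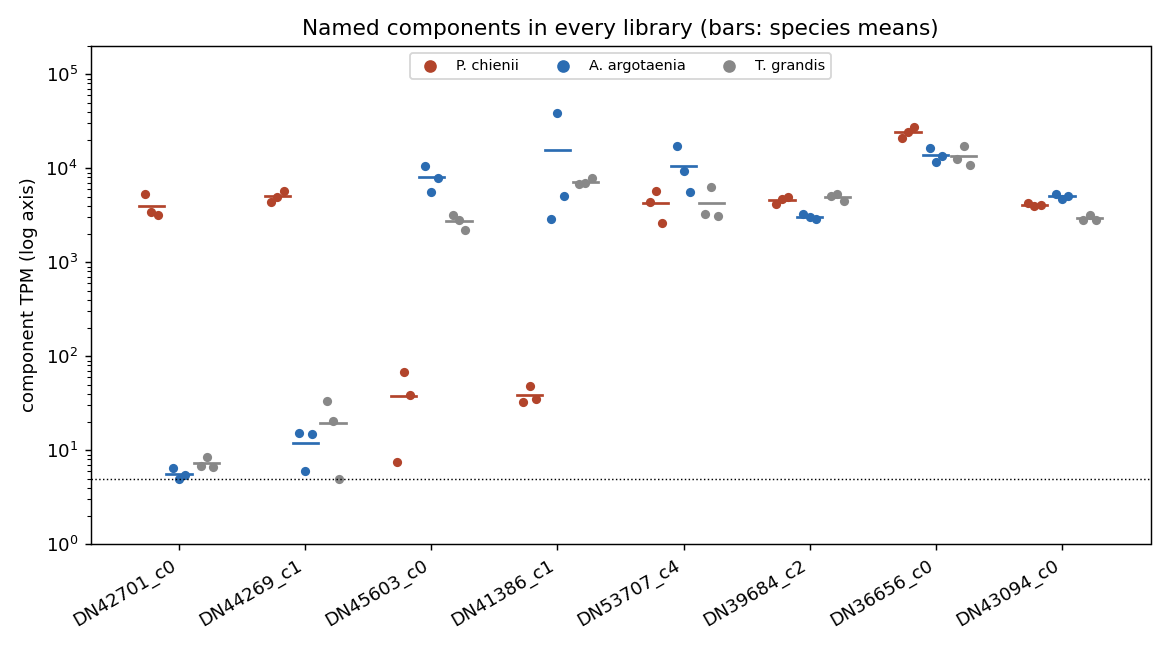
Component level in TPM (vertical log axis) of the 8 components given by ID (horizontal axis), with 1 point per library and a bar at the mean of each species; the dotted line marks 5 TPM. In the first 4 the means of P. chienii and A. argotaenia lie over 2 powers of 10 apart, with T. grandis near A. argotaenia, and in the last 4 the means lie less than 1 power of 10 apart.

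Other abundant components were not called. TRINITY_DN53707_c4 was at 4414, 5698 and 2619 TPM in P. chienii replicates 1, 2 and 3 and at 17225, 9239 and 5588 TPM in A. argotaenia. The species overlapped, and the log2 fold change of -1.25 (95% interval from -2.39 to -0.11; adjusted p = 0.0568, limma) missed the threshold; its interval does not show that the levels are alike. The value moved with the library left out: it was -1.64 and called without A. argotaenia replicate 3 (limma, adjusted p = 0.0294), and -0.83 and not called without its replicate 1 (limma, adjusted p = 0.188). After quantile normalization it was -0.62 (limma, adjusted p = 0.342). TRINITY_DN39684_c2 was at 4124, 4670 and 4921 TPM in P. chienii and at 3288, 2993 and 2857 TPM in A. argotaenia. Its libraries did not overlap and its adjusted p was 0.0271 by limma (0.0031 to 0.583 over the alternatives), but its log2 fold change of 0.58 (95% interval from 0.14 to 1.03) was under 2-fold. Both are led by the same feature in both species. In TRINITY_DN39684_c2 that feature held 99.6% of the level in P. chienii and 93.7% in A. argotaenia. In TRINITY_DN53707_c4 it held 51.0% in P. chienii and 91.4% in A. argotaenia.

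Totals that were less than 2-fold apart could also rest on different features. TRINITY_DN36656_c0 was at 20862, 24002 and 27287 TPM in P. chienii replicates 1, 2 and 3 and at 16471, 11598 and 13504 TPM in A. argotaenia. The log2 fold change was 0.80 (95% interval from 0.02 to 1.58; limma, adjusted p = 0.071), and after quantile normalization it was 1.58 and called. Its feature TRINITY_DN36656_c0_g1 was at 20808, 23827 and 27180 TPM in P. chienii and at 35.0, 24.0 and 39.9 TPM in A. argotaenia. Its feature TRINITY_DN36656_c0_g2 was at 13.8, 95.9 and 51.1 TPM in P. chienii and at 16376, 11488 and 13390 TPM in A. argotaenia. TRINITY_DN43094_c0 was at 4228, 3988 and 4039 TPM in P. chienii and at 5365, 4674 and 5060 TPM in A. argotaenia. Its libraries did not overlap between the species either. The log2 fold change was -0.30 (95% interval from -0.71 to 0.12, adjusted p = 0.195 by limma), and it turned to 0.18 after quantile normalization. There TRINITY_DN43094_c0_g3 held 98.7% of the level in P. chienii and 0.0986% in A. argotaenia, and TRINITY_DN43094_c0_g2 held 0.568% and 99.5%. In both components the totals differ by less than 2-fold while each leading feature differs by over 100-fold.

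Different leading features were common beyond these examples. Of the 10270 components 2607 had 1 feature. Of the 7663 with several, the feature with the highest mean was the same in both species in 3768 and different in 3895 (50.8%). Where it was the same, it held a median of 96.6% of the component in P. chienii and 89.7% in A. argotaenia. Where it differed, the P. chienii leader held a median of 81.5% of the component in P. chienii and 0.260% in A. argotaenia, and the A. argotaenia leader held 76.5% in A. argotaenia and 0.858% in P. chienii. In 1830 of the 3895 components each leader was under 2% of the component in the other species. In 2631 of the 3895 each species had 1 leader in all 3 of its own libraries. No sequences were compared, so whether the leading features of a component are counterparts of 1 gene was not tested.

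**Figure D5:**
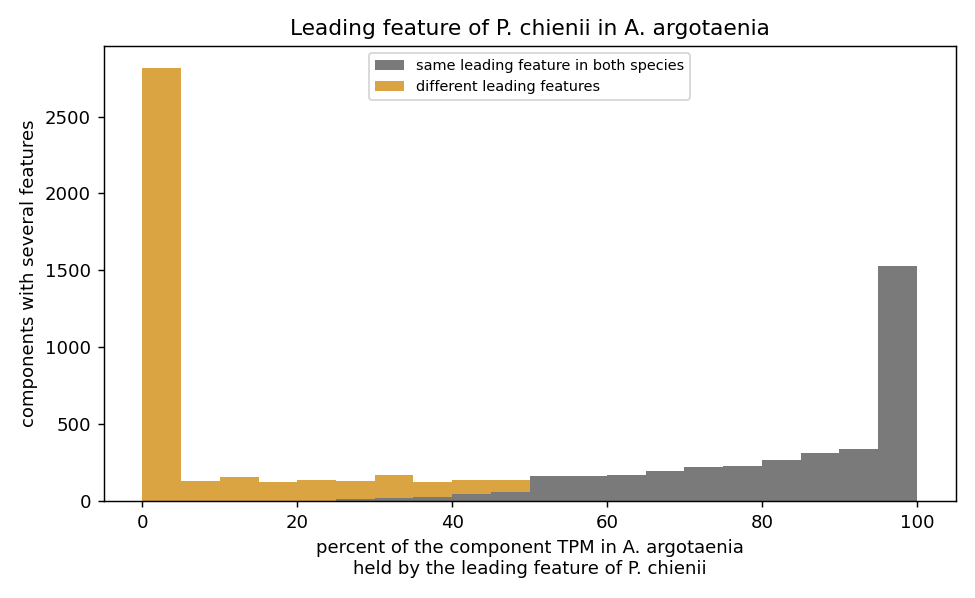
Number of components with several features (vertical axis) by the percent of the component's TPM in A. argotaenia that the leading feature of P. chienii held (horizontal axis, bins of 5%), with components led by the same feature in both species in grey and those led by different features in yellow. The leader of P. chienii was under 5% of the component in A. argotaenia in 2818 of the 3895 components led by different features, and at 95% or more in 1530 of the 3768 led by the same.

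Summing over components therefore changed the size of the difference. Among the 3895 components with different leaders, the P. chienii leader taken alone had a median log2 difference of 3.67 and the A. argotaenia leader one of -3.57, while the component had 0.05. The sign of the first pair follows from how leaders are chosen, so these medians are a description. In 2255 of these components the totals differed by less than 2-fold, and in 996 of the 2255 both leaders were at least 8-fold apart in opposite directions. Among the components with the same leader, that feature had a median log2 difference of 0.16 and the component one of 0.12.

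Components with different leaders were also called somewhat more often in their totals. The share called was 40.4% of the 3895 with different leaders, 34.4% of the 3768 with the same leader and 29.3% of the 2607 with 1 feature. Differences of at least 8-fold made up 5.06%, 1.83% and 0.997% of these groups. The groups also differ in the number of features and in level. Among components of 2 to 3 features 39.04% were called with different leaders and 32.9% with the same, at median levels of 26.8 and 26.5 TPM. Among those of 4 to 11 features it was 41.4% and 37.6%, at 32.5 and 42.5 TPM. The 32 components of 12 features or more were led by different features in 27 cases, and 15 of them were called. These shares are descriptions, and the differences between them were not tested.

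The leading feature held a smaller median share of its component in the A. argotaenia libraries than in those of P. chienii. Over the 7663 components with several features, the leading feature of the species held a median of 92.5%, 91.0% and 92.4% of the component in P. chienii replicates 1, 2 and 3, and 85.2%, 86.9% and 85.3% in A. argotaenia. The libraries did not overlap, and the exact permutation test gave p = 0.1 (two-sided, n = 3 and 3), the smallest it can give, with an adjusted p of 0.28 over the 7 measures tested. The leader was the same in all 3 libraries in 6722 of these components in P. chienii and in 6616 in A. argotaenia.

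T. grandis, which played no part in choosing the components, expressed most of them. In all 3 of its libraries 8888 of the 10270 (86.5%) were at 5 TPM or more, and 233 were under 1 TPM in all 3. The share at 5 TPM or more was 86.7% among the components called higher in P. chienii, 88.6% among those called lower and 86.0% among those not called. Against T. grandis, 4245 of the components were called in P. chienii (41.3%, beside 48.4% of the whole table), 2727 higher and 1518 lower, and 3775 in A. argotaenia (36.8%, beside 42.3%), 2306 higher and 1469 lower. The components were required to be present in P. chienii and A. argotaenia but not in T. grandis, which favours higher calls in both. The 3 comparisons share libraries, so their calls are given side by side and no overlap was computed.

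The named components took different places in T. grandis. TRINITY_DN42701_c0 was at 6.80, 8.44 and 6.70 TPM in T. grandis replicates 1, 2 and 3 and TRINITY_DN44269_c1 at 33.5, 20.7 and 4.96 TPM, both near the A. argotaenia levels. TRINITY_DN45603_c0 was at 3186, 2795 and 2222 TPM and TRINITY_DN41386_c1 at 6784, 6986 and 7883 TPM, in both cases far above P. chienii. In TRINITY_DN45603_c0 A. argotaenia stood above T. grandis, and the log2 difference was 1.51 ± 0.67 (SE; limma, adjusted p = 0.0985), which was not called. TRINITY_DN36656_c0 was at 12392, 17244 and 10788 TPM, overlapping A. argotaenia in the total, and TRINITY_DN43094_c0 at 2844, 3172 and 2838 TPM, below both other species. In the first, another feature, TRINITY_DN36656_c0_g7, was at 12227, 17131 and 10699 TPM in T. grandis. The A. argotaenia leader TRINITY_DN36656_c0_g2 was at 79.85, 54.32 and 12.53 TPM there. In the second, the A. argotaenia leader TRINITY_DN43094_c0_g2 was at 2813, 3150 and 2817.5 TPM in T. grandis. The component at rank 3 in P. chienii, at 24.1 ± 4.04 TPM (SD, n = 3) in A. argotaenia, was at 5438, 4570 and 4449 TPM in T. grandis, within the range of P. chienii in 2 of these 3 libraries.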

How the data were processed

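RNA-seq of twigs gave 1 table per library. The deposited values are TPM. No file header names a unit, and TPM was inferred because the 6 libraries each sum to between 999915 and 999947. Trinity is named per the labels; the quantifier and its version were not given in the sources used here. TPM keeps no depth, so no counting interval is given and depth could not set the wording. TPM was summed over components in Python 3.11.15 (pandas 2.3.3, numpy 2.4.6, scipy 1.17.1; figures with matplotlib 3.10.9). Differences were tested with limma 3.58.1 (R 4.3.3; trended prior variance, two-sided) on log2(TPM + 1). All 9 libraries entered with species as the only term, and components needed 1 TPM or more in 3 of them. The step was run on simulated data with independent noise and far fewer changed components than were called here. That setting differs from these data, so the run checks the code only. Leading features are those with the highest species mean.

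Named components were the 2 largest rises and 2 largest falls among called components without overlap, the 2 most abundant uncalled components with the same leader and the 2 with different leaders; the 5 most abundant per species are given by rank. Members, lists and tests were chosen with earlier results of these data known. Over the components, the deviations of same-numbered libraries of the species had correlations of 0.031, -0.0454 and -0.0187. Those of differently numbered libraries ran from -0.0517 to 0.0942, so no pairing by number stood out. A pairing that is weak or acts on few components was not tested. Alternatives changed the pseudocount, filters, TPM limit, scaling, libraries fitted, trend, fold limit, way of summing, low values, block and libraries left out. Added after the data were seen were leaving out components with a species under 2% of the other, and applying the 1 TPM limit to the abundance classes.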

Additional observations from a re-analysis of the deposited data

How the results depend on the processing

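With each library left out in turn, called components numbered 3530 to 3692. With the replicate block 3612 were called, and among the named components the call of TRINITY_DN53707_c4 alone changed, to called (adjusted p = 0.0375, limma). Counts moved by over 1.5 times with the limits that define them. At a limit of 1 TPM there were 16376 components and 6489 calls, 3661 higher and 2828 lower; at 10 TPM 6702 and 2244, 1223 higher and 1021 lower; at 20 TPM 3693 and 1178, 641 higher and 537 lower, with 1635 led by the same feature. Without a minimum fold 6052 were called, 3318 higher and 2734 lower, and at 4-fold 1009, 562 higher and 447 lower. The share of TPM held was 85.9%, 68.2% and 57.6% in P. chienii and 85.3%, 68.6% and 58.9% in A. argotaenia at 1, 10 and 20 TPM, and 81.0% and 82.3% with a species mean of 5 TPM. The median shift was 0.000496 after median-ratio scaling, which centres it by construction, and 0.0183 after quantile normalization. Beside the calls given in the report, TRINITY_DN53707_c4 was called with no filter on low components (adjusted p = 0.0494, limma) and with leading features in place of sums (-2.10, adjusted p = 0.00635, limma), and TRINITY_DN36656_c0 after quantile normalization (1.58, adjusted p = 0.00168, limma), where TRINITY_DN43094_c0 turned to 0.18, still not called; the cause was not tested. The named rises and falls kept direction and call in all 19 alternatives each. They were chosen as the most extreme calls, which favours this, so it adds no support. Changed TPM limits were not among these 19. With feature values under 2% set to 0, these components fell below the limit of 5 TPM, though their fold changes were still called.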
